A study of Mus musculus with 10 samples.

Results

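The leptin receptor gene Lepr, the gene Leprot that lies before it on the same chromosome and the Leprot paralog Leprotl1 were followed in mouse liver, 3 of the 24421 genes listed. Lepr was chosen by its higher count in the treated group of these same libraries, so its values in this contrast are a description and carry no test. Leprot and Leprotl1 were chosen by their locus and their kinship. All 3 genes passed the filter on low counts, as did 11092 genes in all. Liver mRNA came from male C57BL/6 mice aged 21 weeks that fed freely. Controls, called Chow (n = 5), were given plain standard chow. The other mice, called TM5614 (n = 5), were given chow holding TM5614, an oral small-molecule inhibitor of plasminogen activator inhibitor 1, at 20 mg/kg/day for 10 days. All mice were wild type and each gave 1 library. The labels name no vehicle and no other agent.

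Leptin is a hormone of fat tissue that reports energy stores. It binds Lepr, a class I cytokine receptor that has no kinase of its own and signals through Jak2 and Stat3, and Socs3 and Ptpn1 damp the signal. A long form of the receptor carries the full intracellular tail, shorter forms predominate in liver, and shedding of the outer part by Adam10 and Adam17 yields a soluble receptor that carries leptin in blood. Leprot (endospanin 1) is a small membrane protein that holds the leptin receptor inside the cell and so limits its number at the surface, and Leprotl1 (endospanin 2) is its relative.

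On the mouse genome build GRCm38 (mm10), GENCODE M21 places Leprot on chromosome 4 at 101647718 to 101659364 and Lepr on the same strand of chromosome 4 at 101717404 to 101815352. The genes do not overlap and lie 58.0 kb apart. Leprotl1 lies on chromosome 8 at 34135572 to 34147033, on the minus strand. The longest coding transcripts of Leprot and Leprotl1 each code for 131 residues, and 69.7% of their 393 coding bases were identical position by position. The longest run of bases shared by any Leprot and Leprotl1 transcript was 12, and that shared by Lepr with either was at most 17, well under the read length of 75 bases. The main Lepr transcripts code for 1162, 894 and 892 residues, of which the first is the long form. These 3 transcripts share 3222 exonic bases, which is 78.1% of the long form, and the deposited counts give a single value per gene, so the long and short forms cannot be told apart here.

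The sequences before the Leprot and Lepr starts are shown because the genes share a locus and differed in their counts. RefSeq held a start for 2 of the 3 genes on GRCm38.p6. Each window runs from 250 to 67 bases before the start on the plus strand (184 bases), ahead of any annotated exon. Capitals mark GC boxes, the motif GGGCGG on either strand.
Leprot, chr4:101647533-101647716: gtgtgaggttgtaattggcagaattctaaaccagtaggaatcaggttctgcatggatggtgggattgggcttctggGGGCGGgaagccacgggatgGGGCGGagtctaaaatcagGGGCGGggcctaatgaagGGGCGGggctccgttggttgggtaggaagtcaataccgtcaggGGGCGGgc
Lepr, chr4:101717157-101717340: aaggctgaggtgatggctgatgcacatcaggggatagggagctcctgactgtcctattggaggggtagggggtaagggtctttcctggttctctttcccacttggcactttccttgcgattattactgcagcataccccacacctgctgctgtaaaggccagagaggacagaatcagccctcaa
The Leprot window was 58.7% G or C with 8 CpG and held 5 GC boxes that did not overlap, while the Lepr window was 53.3% G or C with 1 CpG and no GC box. Over 32509 promoter windows of the same length, 21.9% held a GC box and the median GC content was 51.6%. The CCAAT motif, found in 25.6% of promoters, was present in 2 copies before Leprot and 1 before Lepr. The E-box CACGTG, the STAT motif TTCNNNGAA, the cAMP response element TGACGTCA and the nuclear receptor motif AGGTCA, all searched on both strands, were in neither window, and the shares of promoters with them were 3.83%, 5.36%, 0.64% and 10.5%. Lepr has a further RefSeq start 499 bases on, whose window lies partly in an exon and is not shown.

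Library totals ranged from 6398335 to 10874955 counts, and a pair of libraries stood apart. Chow replicate 2 had a mean correlation of 0.927 with its own group (0.965 to 0.970 in the other Chow libraries), and a trend with GC content and gene length accounted for 46% of the variance of its deviations (0.763% to 11.5% in the other 9 libraries). TM5614 replicate 2 held 3690 CPM (counts per 1000000 of the library total) summed over 8 skeletal muscle markers, against 1.14 to 59.9 in the other TM5614 libraries. The tissue label was met by its markers: all 8 hepatocyte genes were tested and their sum was 117200 to 128400 CPM in Chow and 105000 to 118200 in TM5614. The log2 fold changes of Lepr, Leprot and Leprotl1 are given with and without each of these libraries. Other results, such as FPKM ratios and marker sums, are given for all libraries unless stated.

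Lepr was higher in every TM5614 liver than in any Chow liver. In CPM scaled with TMM, Chow replicates 1 to 5 gave 4.49, 0.965, 3.34, 10.6 and 3.31, and TM5614 replicates 1 to 5 gave 18.7, 30.1, 21.1, 58.6 and 17.9. Chow replicate 4 was the highest Chow liver and TM5614 replicate 4 the highest of all 10, and the groups did not overlap. The mean was 4.54 ± 3.63 CPM (SD, n = 5) in Chow and 29.3 ± 17.1 CPM (SD, n = 5) in TM5614. The edgeR estimate was a log2 fold change of 2.75 (SE 0.51, 95% interval 1.65 to 3.86), a fold of 6.74 with an interval of 3.13 to 14.5. This ranked 11 from the top among the 11092 log2 fold changes, and 10 among the 8598 genes with a mean of at least 50 counts. The groups were apart in CPM for 8.93% of tested genes and 1.73% passed the test as higher in TM5614, and since Lepr was picked for this rise nothing is read from its place among them. The log2 fold change was 2.49 without Chow replicate 2, 2.74 without TM5614 replicate 2, and ranged from 2.33 without TM5614 replicate 4 to 3.28 without Chow replicate 4.

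**Figure D1:**
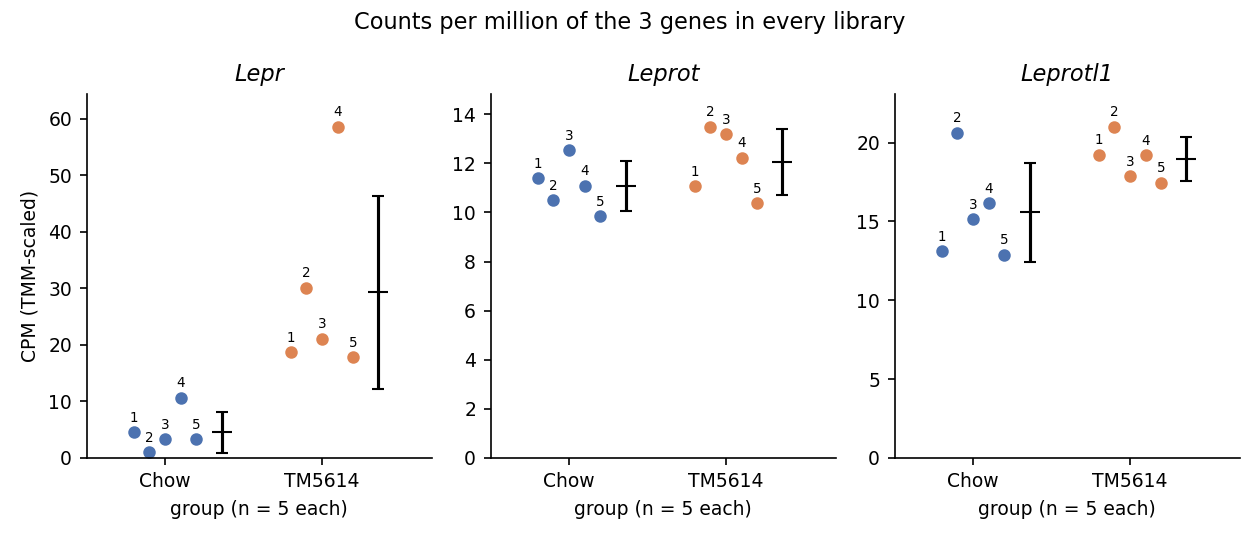
CPM of Lepr, Leprot and Leprotl1 (y axis, linear from 0, scaled by TMM) in the Chow and TM5614 groups (x axis). Each point is a liver labelled with its replicate number, and the black bar is the mean ± SD (n = 5). The Lepr points of TM5614 (17.9 to 58.6) all lie above those of Chow (0.965 to 10.6), while the groups overlap for Leprot and Leprotl1.

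The counts behind these values were low in Chow. Chow replicate 2 had 10 Lepr counts (exact Poisson 95% interval 4.8 to 18.4) and Chow replicate 4 had 67 (51.9 to 85.1), while TM5614 replicates had 130 to 513. These intervals cover counting error only, since the reads carry no molecular identifiers and may be copies of a molecule. Within Chow the Lepr CPM spanned an 11-fold range, and its SD of 1.14 on the log2 CPM scale was larger than that of 99.2% of tested genes. In TM5614 the range was 3.28-fold and the SD of 0.71 was larger than that of 97.2%. The low value of Chow replicate 2 moved with the trend of that library: taking GC content and gene length out raised its Lepr log2 CPM from 0.26 to 1.15, which was still the lowest of the group (others 1.76 to 3.52), and the log2 fold change became 2.60. The longest annotated Lepr transcript was 41.6% G or C, against 47.3% for that of Leprot and 47.7% for that of Leprotl1.

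Leprot, the other gene of the locus, differed by less than the spread of the livers. Chow replicates 1 to 5 gave 11.4, 10.5, 12.5, 11.1 and 9.84 CPM, and TM5614 replicates 1 to 5 gave 11.1, 13.5, 13.2, 12.2 and 10.4. TM5614 replicates 2 and 3 were above all Chow livers and the other TM5614 livers lay within the Chow range. The means were 11.1 ± 1.01 CPM (SD, n = 5) and 12.1 ± 1.35 CPM (SD, n = 5). The log2 fold change was 0.12 (SE 0.13, 95% interval -0.15 to 0.40, edgeR adjusted p = 0.598), so a fold above 1.32 lies outside the interval. It was 0.10 without Chow replicate 2 and 0.08 without TM5614 replicate 2. The SD of its Chow log2 CPM, 0.13, was larger than that of 7.9% of tested genes.

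Leprotl1 was estimated higher in TM5614 but did not pass the test over all genes. Chow replicates 1 to 5 gave 13.1, 20.6, 15.1, 16.2 and 12.9 CPM, and TM5614 replicates 1 to 5 gave 19.2, 21.0, 17.9, 19.2 and 17.45. Chow replicate 2 alone reached into the TM5614 range. The means were 15.6 ± 3.15 CPM (SD, n = 5) and 19.0 ± 1.40 CPM (SD, n = 5), with a log2 fold change of 0.28 (SE 0.14, 95% interval -0.03 to 0.59, edgeR adjusted p = 0.294). Without Chow replicate 2 the log2 fold change was 0.40 with an edgeR adjusted p of 0.0307, while correcting for GC content and gene length gave 0.19 with an edgeR adjusted p of 0.522. Without TM5614 replicate 2 it was 0.24. The call on Leprotl1 changed with that Chow library and with the way it was treated. Of the genes tested, 4.50% passed the threshold in either direction.

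**Figure D2:**
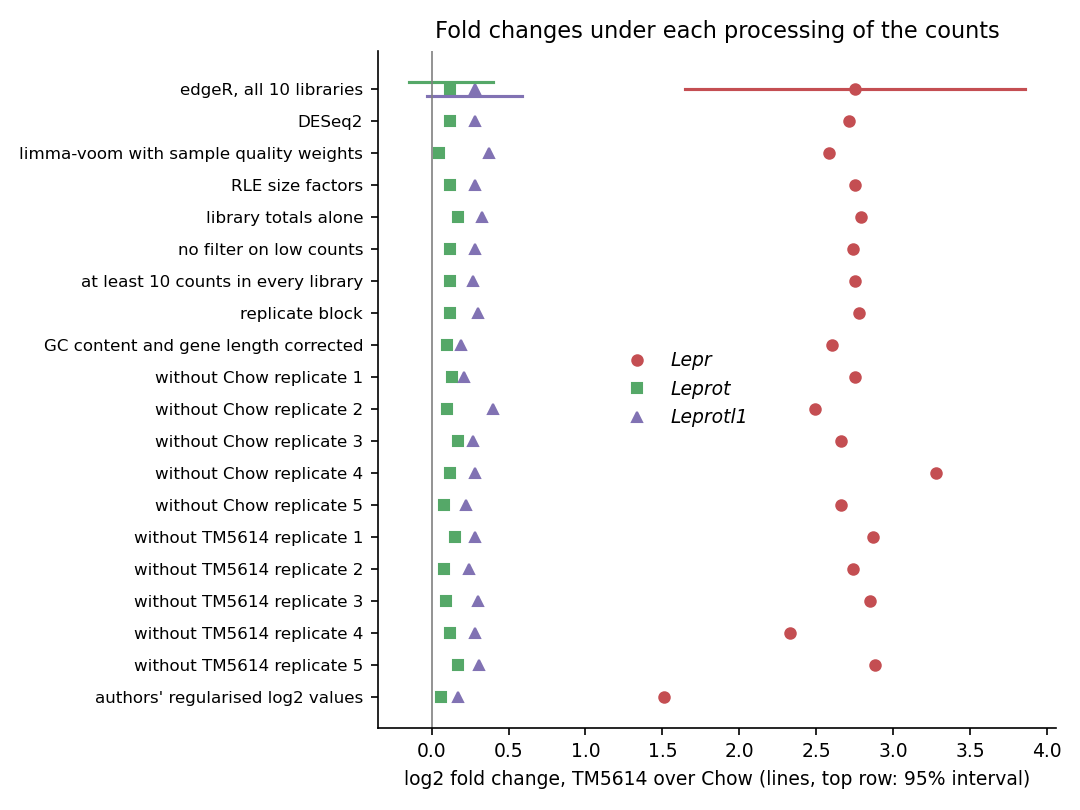
Log2 fold change of TM5614 over Chow (x axis) for Lepr, Leprot and Leprotl1 under each processing of the counts (y axis), with 95% intervals as lines beside the top points. Lepr stays between 2.33 and 3.28 in all fits to the counts and is 1.51 on the authors' regularised log2 scale, which pulls values towards the gene's mean.

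Levels were compared between genes on FPKM, which divides by gene length. In Chow the order was Leprot at 5.99 ± 0.557 FPKM, Leprotl1 at 5.96 ± 1.20 and Lepr at 0.676 ± 0.537 (SD, n = 5 each). Leprot and Leprotl1 overlapped in range, and Lepr lay below both in each Chow liver. In TM5614 the order was Leprotl1 at 7.23 ± 0.483 FPKM, Leprot at 6.51 ± 0.691 and Lepr at 4.35 ± 2.56 (SD, n = 5 each), with all 3 ranges overlapping. Among tested genes, the Lepr mean FPKM was above that of 7.9% in Chow and 41.5% in TM5614. Leprot and Leprotl1 stood near the middle in both groups, at 50.0% and 49.9% in Chow and at 52.1% and 54.9% in TM5614.

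The balance of receptor and Leprot mRNA within a liver moved with Lepr. The ratio of Lepr FPKM to Leprot FPKM was 0.108, 0.0253, 0.0734, 0.264 and 0.0927 in Chow replicates 1 to 5, and 0.465, 0.614, 0.441, 1.32 and 0.475 in TM5614 replicates 1 to 5. The groups did not overlap, and TM5614 replicate 4 was the only liver with more Lepr than Leprot per length. Because Lepr was picked for its rise and Leprot differed little, this separation is a description and carries no test. The mean ratio was 0.113 ± 0.0900 (SD, n = 5) in Chow and 0.663 ± 0.374 (SD, n = 5) in TM5614. The ratio of Leprotl1 to Leprot was 1.00 ± 0.231 in Chow and 1.12 ± 0.104 in TM5614 (SD, n = 5 each), and its ranges overlapped. With the longest annotated transcript as the length, the mean Lepr to Leprot ratios were 0.140 and 0.824. With group means removed, Lepr and Leprot log2 CPM had a Pearson r of 0.30 over the 10 livers (rho 0.45), a description of libraries that share depth and base composition.

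Lepr moved up the order of the class I cytokine receptors. Of 25 receptors (Lepr and 24 others fixed as a list), mean Lepr FPKM ranked 15 in Chow and 9 in TM5614. Its rank in single livers ran from 10 to 21 in Chow and from 6 to 9 in TM5614. As Lepr was picked for its rise, this move is also a description only. Ghr, the growth hormone receptor, was the most abundant in both groups at 115.7 ± 27.3 and 96.0 ± 7.35 FPKM (SD, n = 5 each). In TM5614 the Lepr mean stood between Il4ra, the interleukin 4 receptor chain, at 5.80 ± 0.885 FPKM and Crlf2, a receptor chain for thymic stromal lymphopoietin, at 2.38 ± 0.771 FPKM (SD, n = 5 each), and its range overlapped both. Of the 24 others 16 were tested, and edgeR called 0, near the background of 4.50% of all genes, with 1 at an unadjusted p under 0.05. DESeq2 called 1 (Il12rb1) and limma-voom called 1 (Ghr). Their median log2 fold change was -0.07, against 0.01 over all genes tested. Il6st, the signalling subunit shared by interleukin 6 family receptors, had a log2 fold change of 0.28 (edgeR, SE 0.17, adjusted p = 0.383), and Ghr had -0.27 (SE 0.16, edgeR adjusted p = 0.379) and was called without Chow replicate 2.

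**Figure D3:**
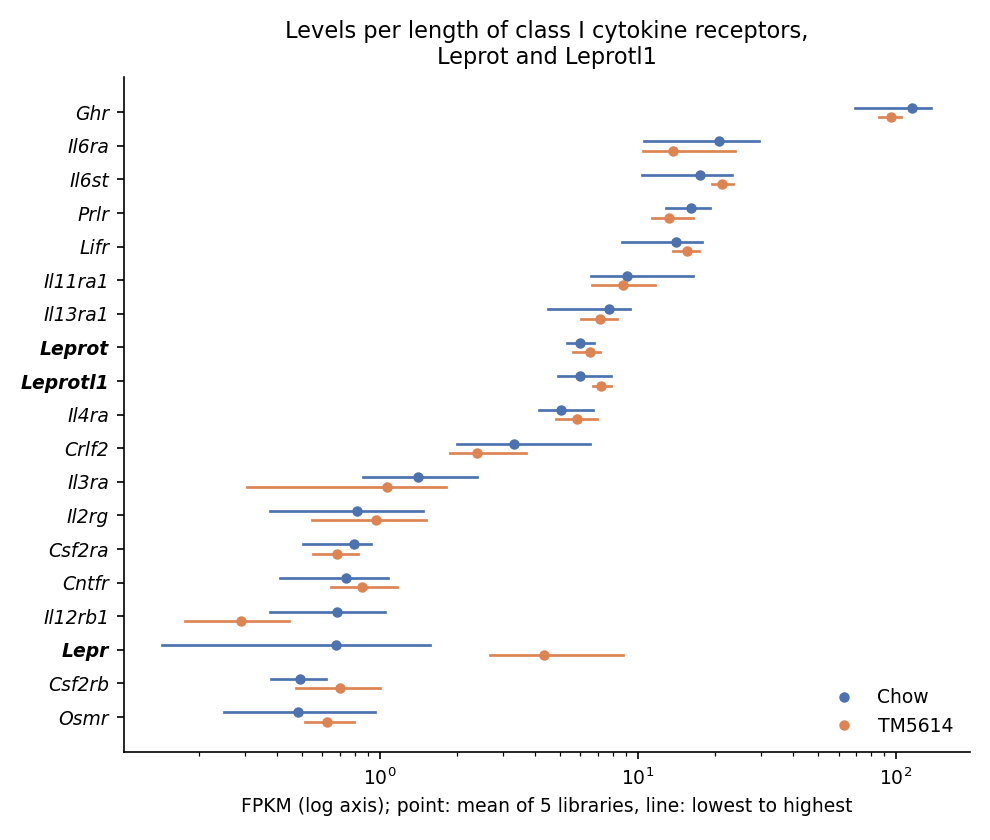
FPKM on a log axis (x axis) of Leprot, Leprotl1, Lepr and the other tested class I cytokine receptors (y axis), with the mean of 5 livers as a point and the lowest to highest liver as a line, in Chow (blue) and TM5614 (orange). Lepr moves from among the least abundant receptors to between Crlf2 and Il4ra.

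The ligand was close to absent in these livers. Lep, which encodes leptin, had 1 count in Chow replicate 5, 5 counts in TM5614 replicate 2 and 0 in the other 8 livers, and did not pass the filter. A count of 0 allows up to 3 counts in a library. The same pair of libraries held the highest sums of the 5 adipocyte markers, 8.33 and 20.3 CPM against at most 3.43 in the others. Lepr in these libraries was 3.31 CPM, the second lowest of Chow, and 30.1 CPM, the second highest of all 10 livers, and the part of fat tissue in these values was not tested.

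Of the 29 genes of leptin signalling, 27 were tested, and 1 was called higher and 1 lower (backgrounds of 1.73% and 2.77% of all genes). Their median log2 fold change was 0.03, with 14 estimates up and 13 down. Of the 27, 7 had an unadjusted edgeR p under 0.05, among them Mapk3 and Stat5b, whose groups did not overlap in CPM. The groups were apart in CPM for 8.93% of all genes tested. No share of all genes at the unadjusted threshold is set beside the 7, so no excess is read from them. Irs1, an adaptor of insulin and leptin receptor signals, rose from 29.9 ± 6.33 to 45.9 ± 5.50 CPM (SD, n = 5), which is 0.62 ± 0.16 on the log2 scale (SE, edgeR adjusted p = 0.0485). That call sat at the threshold and was lost when any 1 of 8 libraries was left out (adjusted p 0.0520 to 0.136). Scd1, a fatty acid desaturase that leptin is known to repress in liver, fell from 5075 ± 1582 to 2231 ± 625 CPM (SD, n = 5), which is -1.19 on the log2 scale (SE 0.24, edgeR adjusted p = 0.0162), and its groups did not overlap. The Scd1 call was lost without TM5614 replicate 3 (edgeR adjusted p = 0.0561).

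Of the pathway's core, Jak2, Stat3 and Socs3 were not called. Jak2, the kinase bound to the receptor, was at 16.9 ± 4.93 CPM in Chow and 18.5 ± 1.55 in TM5614, with a log2 fold change of 0.13 (edgeR, SE 0.20, adjusted p = 0.729). Stat3, the transcription factor that Jak2 activates, was at 119.1 ± 16.7 and 104.9 ± 11.2 CPM, with a log2 fold change of -0.18 (edgeR, SE 0.12, adjusted p = 0.419). Socs3, a feedback inhibitor that Stat3 induces, was at 6.44 ± 3.03 and 6.92 ± 3.75 CPM, with a log2 fold change of 0.11 (edgeR, SE 0.41, adjusted p = 0.894). The SE of Socs3 leaves room for changes that these 5 livers a group could not show.

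Genes of receptor trafficking and shedding covered 22 tested genes. edgeR called 0 of them, near the background of 4.50% of all genes, with 1 at an unadjusted p under 0.05, DESeq2 called 0 and limma-voom called 1 (Vps28, a sorting subunit of endosomes). Their median log2 fold change was 0.08. Adam10 and Adam17, proteases that shed the receptor, had log2 fold changes of 0.16 (SE 0.19, edgeR adjusted p = 0.641) and 0.30 (SE 0.18, edgeR adjusted p = 0.369). Rnf41, a ubiquitin ligase that acts on cytokine receptors, had -0.23 (SE 0.17, edgeR adjusted p = 0.474).

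Liver Lepr mRNA is known to rise when food is withheld, so 12 liver genes of that response were set beside it. All 12 estimates were above 0 with a median log2 fold change of 0.57. By edgeR 8 had an unadjusted p under 0.05, and 4 rose past the threshold (1.73% of all genes did) and 0 fell. The list was chosen with earlier results of these data known, and the paper names Fgf21 as the most upregulated transcript. These counts are therefore a description and carry no test against the background. Fgf21, a hormone the liver releases in fasting, went from 1.28 ± 0.494 to 10.95 ± 1.74 CPM, which is 3.04 on the log2 scale (SE 0.24, edgeR adjusted p = 0.000136). Pdk4, the kinase that turns off pyruvate dehydrogenase, had a log2 fold change of 3.56 (edgeR, SE 0.69, adjusted p = 0.0122), which became 2.51 (edgeR adjusted p = 0.00611) without TM5614 replicate 2, the library with muscle markers, where its CPM was 144.4. G6pc, the last enzyme of glucose release, had 1.60 (SE 0.22, edgeR adjusted p = 0.00186), and Cyp4a14, a fatty acid hydroxylase, had 1.25 (SE 0.19, edgeR adjusted p = 0.00302). Pck1, a gluconeogenic enzyme, was not called at 0.16 (SE 0.21, edgeR adjusted p = 0.677). All mice were labelled as freely fed, and food intake and time of collection were not analysed here.

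**Figure D4:**
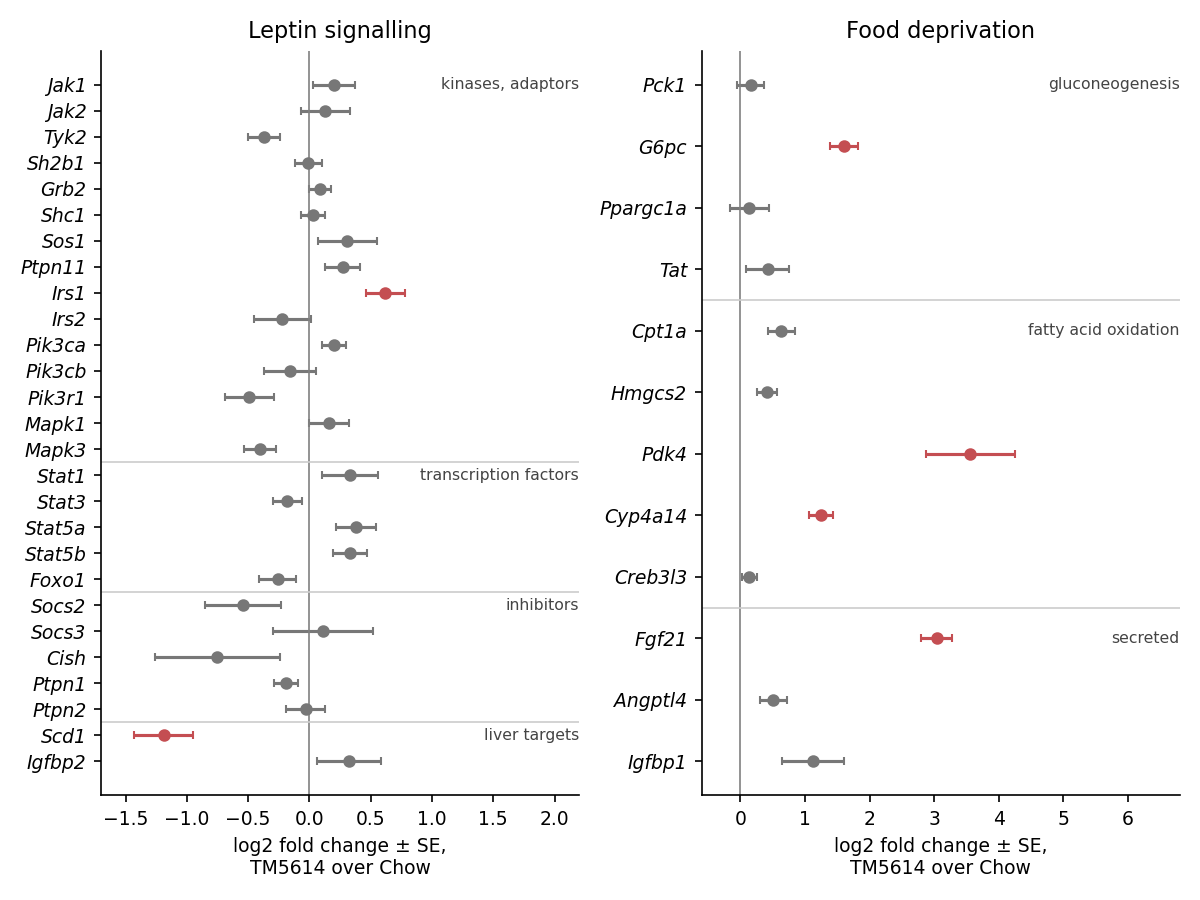
Log2 fold change of TM5614 over Chow with its SE (x axis) for the tested genes of leptin signalling (left) and of the liver response to food deprivation (right), grouped by role (y axis). Red points have an edgeR adjusted p under 0.05: Irs1 and Scd1 on the left, and G6pc, Pdk4, Cyp4a14 and Fgf21 on the right.

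The genes beside the members were too few to set against the background of 4.50% called. Of the 10 nearest protein-coding genes around Leprot and Lepr, 7 were listed in the deposited counts and 2 had enough counts to be tested. Of these 2 edgeR called 0, with 1 at an unadjusted p under 0.05, and DESeq2 and limma-voom each called 1 (Ak4). Ak4, an adenylate kinase 180.7 kb before Leprot, had a log2 fold change of -0.68 (edgeR, SE 0.20, adjusted p = 0.0811), and no tested gene lay within the 5 after Lepr. Around Leprotl1 9 of 10 were listed and 8 were tested. Of these 8 edgeR called 0, with 1 at an unadjusted p under 0.05, DESeq2 called 0 and limma-voom called 1 (Rbpms). Dctn6, a dynactin subunit 26.8 kb from Leprotl1, had -0.03 (SE 0.12, edgeR adjusted p = 0.924), and Saraf, a calcium entry regulator 7.5 kb away on the other side, had 0.12 (SE 0.10, edgeR adjusted p = 0.502).

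Whole liver mixes cell types, so fewer cells of a type and less RNA per cell cannot be told apart. Markers of stellate cells (10 of 10 tested, median log2 fold change 0.22), endothelium (10 of 10, 0.07), Kupffer cells (9 of 9, -0.37) and hepatocytes (8 of 8, -0.24) gave 0 calls by edgeR, near the background of 4.50% of all genes, with 3, 1, 0 and 4 at an unadjusted p under 0.05. DESeq2 called 0, 0, 0 and 1 of them, and limma-voom 1, 0, 0 and 2. With the replicate number as a block edgeR called 1, the stellate gene Hgf. The stellate sum was 233.5 to 407.4 CPM in Chow and 364.1 to 649.8 in TM5614, with the highest in TM5614 replicate 2, the library with muscle markers. Endothelial sums were 111.7 to 193.7 and 116.4 to 204.6 CPM, and Kupffer sums 72.4 to 225.7 and 76.2 to 167.5. Of the 10 stellate estimates 8 were up, and of the 10 endothelial estimates 6 were up. The stellate gene Des had the largest estimate of its list, 4.47 (edgeR, SE 1.38, adjusted p = 0.0956). It ran from 2.15 to 257.6 CPM in TM5614 and from 1.47 to 4.63 in Chow. Des is among the 8 that were up and the 3 at an unadjusted p under 0.05. The part of muscle in its values was not tested. All 9 Kupffer estimates were down (log2 fold changes of -0.75 to -0.21), as were 6 of the 8 hepatocyte estimates. The sums of each of these cell types overlapped between groups, those of hepatocytes only from 117200 to 118200 CPM. The hepatocyte genes Ttr, F2 and Ahsg did not overlap and were lower in TM5614, with log2 fold changes of -0.62, -0.32 and -0.34. The other hepatocyte genes overlapped, and the groups were apart for 8.93% of all genes tested. The part of cell mixture in the Lepr values was not tested.

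The genes whose log2 CPM followed Lepr most closely were sought among 8595 tested genes with a mean of at least 50 counts, as a description over 10 livers that share depth and base composition. With group means removed, the 6 highest Pearson r were those of Nudcd2 (0.96), Phf2, a histone demethylase (0.93), Zhx2, a transcriptional repressor (0.93), Ric8b, a chaperone of G proteins (0.93), Dlat, a pyruvate dehydrogenase subunit (0.92), and Rnf130, a RING finger protein (0.92). Without that removal, where the group difference enters, they were Ric8b (0.97), Ptges3 (0.96), Ube2b (0.95), Sucla2 (0.95), Rab2a (0.95) and Bnip3l (0.94), whose log2 fold changes of 0.25 to 0.45 did not pass the test. Leaving out Chow replicate 2 kept 1 of the first 6 genes and 2 of the second. Ranking by Spearman rho in place of Pearson r kept 0 of the first 6 and 2 of the second. The genes most like Leprot with group means removed were Id2 (0.89), Bbip1 (0.87) and Cdh1 (0.85). Without Chow replicate 2 their r was 0.89, 0.88 and 0.87. The genes most like Leprotl1 were Nagk, Cmc2 and Vtn (0.99 each), with an r of 0.97, 0.97 and 0.96 without Chow replicate 2.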

How the data were processed

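Hepatic mRNA of 10 mice was analysed, and each title gave the group. Per the study's methods and the submitters' processing notes, poly(A) libraries were sequenced as single-end reads of 75 bases and aligned with STAR to mm10 in the RNA Express application, and HOMER and DESeq2 are also named; versions, annotation and strand use are not given in the sources used here. The deposited counts are raw whole numbers for each gene symbol, with totals from 6398335 to 10874955. They also deposited FPKM, used here only to compare levels between genes, and regularised log2 values, used as an alternative. A further deposited table holds fold changes and p-values of the authors' comparison and was not used.

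Counts were filtered with filterByExpr, scaled with TMM and tested with edgeR 4.0.16 (quasi-likelihood, two-sided) under R 4.3.3. P-values were adjusted by Benjamini-Hochberg over 11092 genes, with a threshold of 0.05. List counts at an unadjusted p under 0.05 are given without the share of all genes there, so no excess is read from them. Log2 CPM had a prior count of 2. The study used DESeq2, run here (1.42.0) as an alternative beside limma-voom with sample quality weights (limma 3.58.1), other scalings and filters, a replicate block, a spline correction for GC content and length, and each library left out in turn. The tests were checked on simulated counts. Within groups the 20 pairs of libraries differed beyond sampling noise (lowest chi-square per degree of freedom 7.5). The labels name no batch. The p-values measure the spread between mice.

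The members and lists were chosen with earlier results of these data known. Named genes were the 3 members, a set of pathway genes given whatever their value, up to 5 called genes per list by size of change, the nearest tested or called neighbours, and those most like each member. Pck1, Crlf2, Il4ra, Vps28, Rbpms, Il12rb1, Hgf, Mapk3, Stat5b, Igfbp2, Des, Ttr, F2 and Ahsg were named after their values were seen. Coordinates came from GENCODE M21 and promoter sequences from RefSeq (GRCm38.p6).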

Additional observations from a re-analysis of the deposited data

Results flagged for a closer look

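A value was picked out where it lay far from the other 4 livers of its group by Dixon's criterion at 95% (gap over range above 0.71). Chance gives about 1 in 20 groups, or 4.5 of the 90 examined, and 10 were found, with no test of their cause. That expected number takes the measures as independent. Lep is also part of the adipocyte marker sum, and with 0 in the other livers any Lep count passes the criterion. No excess is therefore read from the 10. The ratio of Lepr to Leprot FPKM was 1.32 in TM5614 replicate 4, against 0.441 to 0.614 in the others. Lep was at 0.0920 CPM (1 count) in Chow replicate 5 and at 0.649 CPM (5 counts) in TM5614 replicate 2, against 0 in the other livers of each group. The adipocyte marker sum was 8.33 CPM in Chow replicate 5 (others 0.206 to 1.01) and 20.3 in TM5614 replicate 2 (others 0.340 to 3.43). The skeletal muscle marker sum was 3690 CPM in TM5614 replicate 2 (others 1.14 to 59.9), and Pdk4 was at 144.4 CPM there (others 12.6 to 40.3). Adam10 was lowest in Chow replicate 2, at 17.0 CPM (others 33.7 to 37.7), where Cmc2 was highest, at 20.35 CPM (others 7.76 to 11.1). Phf2 was at 31.3 CPM in TM5614 replicate 4 (others 24.8 to 26.5).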

How the results depend on the processing

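The log2 fold change of Lepr kept its direction under 18 alternatives and moved by less than the pooled SD of its log2 CPM within groups. That margin is wide, since the SD was 1.14 in Chow and 0.71 in TM5614. The log2 fold change of Lepr was 1.51 on the regularised log2 scale, which shrinks by construction. That of Leprot kept its direction and was not called under any of the 18 that have a test. Leprotl1 kept its direction and was called under 2 of those 18: with limma-voom (0.37, adjusted p = 0.0276) and without Chow replicate 2. Leaving out each library in turn gave 2.33 to 3.28 for Lepr, 0.08 to 0.17 for Leprot and 0.21 to 0.40 for Leprotl1. The count of genes called in all, 499, was 900 with DESeq2 and 1386 with limma-voom, and ranged from 235 (without TM5614 replicate 3) to 1031 (without Chow replicate 2), with 293 without Chow replicate 3, 331 without TM5614 replicate 1 and 259 without TM5614 replicate 4. Leptin signalling had 4 calls with limma-voom, 1 with no filter on low counts and 0 to 3 with a library left out. Cytokine receptors had 1 with DESeq2, limma-voom or the GC and length correction and 0 to 1 with a library left out, and neighbours of Lepr and Leprot had the same. Trafficking genes and neighbours of Leprotl1 had 1 with limma-voom. Food deprivation genes, 4 in the main test, had 6 with limma-voom or the replicate block, 3 with at least 10 counts in every library, and 4 or 5 with a library left out. Libraries of the same number had deviations correlated by 0.03 to 0.32. No correlations between libraries of different numbers are set beside these, so they cannot tell whether libraries were paired. With the replicate number as a block Lepr was 2.78, Leprot 0.12 and Leprotl1 0.30, and the neighbours of Leprotl1 had 1 call. The causes of these shifts were not tested. The Chow counts of Lepr, 10 to 67, limit the precision of its fold.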
